A study of Homo sapiens with 4 samples.

Results

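EREG, HBEGF, EPGN and BTC, which encode ligands of the epidermal growth factor (EGF) family, EGFR and ERBB3, which encode receptors that bind such ligands, and ERRFI1, which encodes an inhibitor of EGFR, were followed in 2 cancer cell lines treated with a leaf extract. They are 7 of 14884 genes that the annotation table used here pairs, as the only symbol, with a transcript cluster of the array. They were chosen by gene symbol, from a list of 10, with their values on these arrays known, EREG for its difference in HepG2 cells. That table pairs no cluster with AREG, TGFA or ERBB2 as its only symbol. These other 3 genes of the list are therefore not analysed here. All values below are descriptions, and no test was applied.

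HCT116, a human colorectal carcinoma line, and HepG2, a human hepatocellular carcinoma line, were each given MP-HX, the hexane extract of Melicope ptelefolia leaves, for 24 h, or the DMSO vehicle alone. HCT116 cells received 60 µg/mL and HepG2 cells 78 µg/mL, so the effects of line and dose cannot be told apart. The labels put the HCT116 vehicle at 0.3% DMSO and the HepG2 vehicle at 0.39%, and the methods name 0.39% throughout. RNA of 3 cultures was pooled for each group and hybridised to 1 Human Gene 2.0 ST array, so there are 4 arrays and no replicates, and no difference below has a measured error.

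Signal is on a log2 scale, on which a difference of 1 is 2-fold. The array medians over 48226 clusters ran from 3.97 to 4.33, and a level under its array's median is called dim. Levels are compared between arrays for 1 gene and never between genes. The line labels were checked by markers: among the vehicle arrays, 7 hepatocyte genes centred on 12.18 in HepG2 against 3.62 in HCT116, and 5 colon epithelium genes on 4.48 against 5.94 (medians). KRT20, a defining colon keratin, was dim in HCT116, at 3.73 on the vehicle array. In bulk RNA, fewer cells that express a gene and less of its RNA per cell cannot be told apart.

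EGF family ligands are made as membrane proteins and released by cell surface proteases. The freed ligand joins receptors of the ERBB family into pairs, whose tyrosine kinases signal through RAS and ERK and through PI3K and AKT. Epiregulin (EREG), heparin-binding EGF-like growth factor (HBEGF), betacellulin (BTC) and epigen (EPGN) all bind EGFR. ERBB3 binds neuregulins and, having a weak kinase of its own, signals through its partner. ERRFI1, also called MIG6, binds the EGFR kinase and blocks it, and is itself induced by the receptor's signal. EREG is well known in colorectal cancer, where it has been studied as a marker of response to antibodies against EGFR.

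The promoters of EREG, HBEGF and EGFR are shown because these were the members furthest from vehicle. Each sequence is the 250 bases before the gene's start in RefSeq (GRCh38.p14), 5′ to 3′ on the gene's strand. Capitals mark matches, on either strand, to 6 motifs: the AP-1 site TGAGTCA, the CRE TGACGTCA, the antioxidant response element TGACNNNGC, the GC box GGGCGG, the CCAAT box CCAAT and the TATA box TATAAA. EREG is read from chr4:74364895-74365144 on the plus strand, HBEGF from chr5:140346604-140346853 on the minus strand and EGFR, at the first of its starts, from chr7:55018767-55019016 on the plus strand.
EREG: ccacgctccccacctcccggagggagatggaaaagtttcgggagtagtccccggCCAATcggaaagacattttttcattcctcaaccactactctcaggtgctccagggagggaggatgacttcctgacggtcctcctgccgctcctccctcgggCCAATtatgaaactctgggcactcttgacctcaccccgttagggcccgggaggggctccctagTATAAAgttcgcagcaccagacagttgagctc
HBEGF: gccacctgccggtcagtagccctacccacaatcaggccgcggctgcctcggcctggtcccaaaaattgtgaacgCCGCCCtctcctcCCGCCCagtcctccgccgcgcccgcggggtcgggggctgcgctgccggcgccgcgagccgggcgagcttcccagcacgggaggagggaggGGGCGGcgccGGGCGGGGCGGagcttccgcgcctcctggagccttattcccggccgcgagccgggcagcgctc
EGFR: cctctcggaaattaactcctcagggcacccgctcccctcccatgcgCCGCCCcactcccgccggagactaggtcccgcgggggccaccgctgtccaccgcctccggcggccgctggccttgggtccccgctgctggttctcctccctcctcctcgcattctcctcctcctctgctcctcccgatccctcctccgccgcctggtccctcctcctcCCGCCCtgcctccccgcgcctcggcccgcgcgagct

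The EREG window held a TATA box at position -32 and CCAAT boxes at -196 and -95, counted from the gene's start to the first base of the match. The HBEGF window held 5 GC boxes, of which those at -63 and -58 overlap by 1 base, and neither a TATA nor a CCAAT box. The first EGFR window held 2 GC boxes, and the window before a second EGFR start held 2 AP-1 sites and 2 TATA boxes. An AP-1 site, a CRE or an antioxidant response element was found in none of the windows printed. Of all 35116 RefSeq windows of the same length, 4.2% held an AP-1 site, 1.65% a CRE, 10.9% an antioxidant response element, 42.6% a GC box, 32% a CCAAT box and 10.7% a TATA box. The CRE and the antioxidant response element share their first letters. A match describes the letters and is not a binding site. In the promoter table, 6 of the 7 genes were matched.

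EREG was bright in HCT116 with and without MP-HX, and in HepG2 it was 11.6-fold higher with MP-HX than with vehicle. The treated HCT116 array read 10.88 and its vehicle array 10.91, a log2 difference of -0.03, or 1.02-fold. The treated HepG2 array read 8.03 and its vehicle array 4.50, a log2 difference of 3.53. Both HCT116 arrays thus lay above both HepG2 arrays, and the HepG2 vehicle array, only 0.47 above its median, was the lowest of the 4. Ranked from the most increased of the 14884 genes, EREG was at 8 in HepG2 and at 8066 in HCT116.

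With vehicle, EREG was 85.0-fold lower in HepG2 than in HCT116, a log2 difference of -6.41. With MP-HX the gap was 7.21-fold, a log2 difference of -2.85. The response of HepG2 exceeded that of HCT116 by 3.56. Because the HepG2 vehicle signal was near the array median, these sizes depend on how dim signals are weighed. Adding 64 to every linear signal gave a difference of 1.91 in HepG2 and of -0.03 in HCT116, and a gap of -4.52 between the vehicle arrays.

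**Figure D1:**
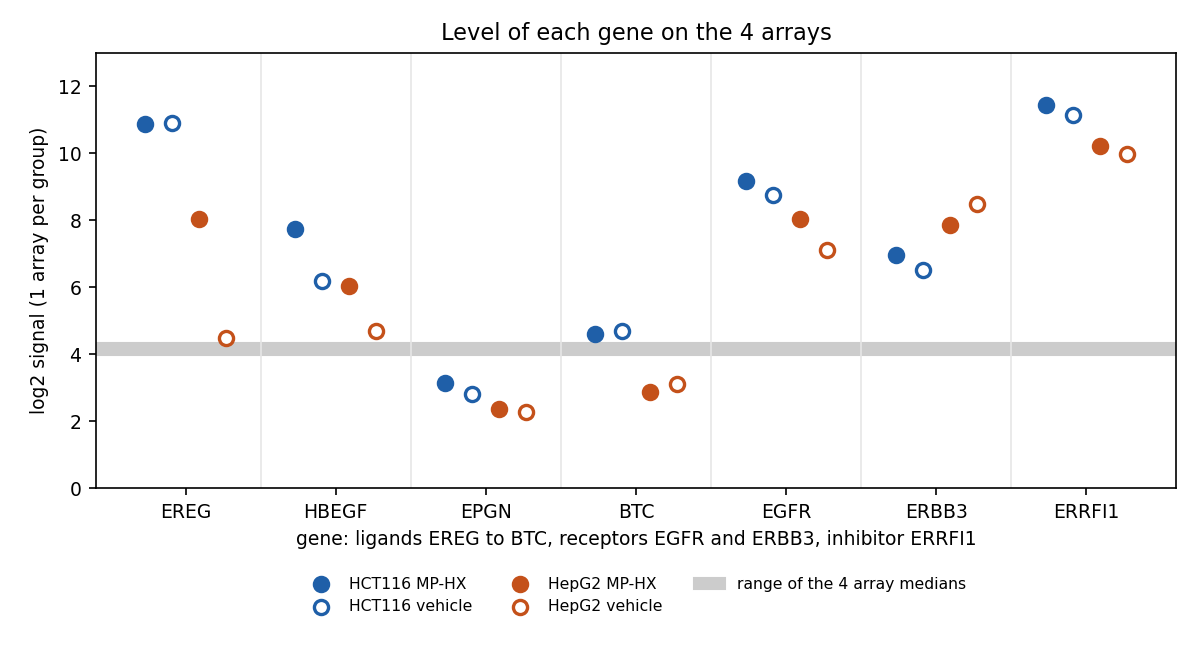
Log2 signal of each gene (y axis) on the 4 arrays, filled for MP-HX and open for vehicle, blue for HCT116 and orange for HepG2, 1 array per group, with the range of the array medians in grey. Heights are to be compared within a gene only: EREG in HepG2 is at 4.50 with vehicle and 8.03 with MP-HX, the treated HBEGF signal is the higher one in both lines, and EPGN is under the medians on all 4 arrays.

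HBEGF, a ligand whose membrane form is also the receptor of diphtheria toxin, was higher with MP-HX in both lines. In HCT116 the treated array read 7.75 and the vehicle array 6.18, a log2 difference of 1.57, or 2.97-fold. In HepG2 the treated array read 6.05 and the vehicle array 4.71, a log2 difference of 1.34, or 2.53-fold. Each treated array lay above the vehicle array of its line. The treated HepG2 array lay under the HCT116 vehicle array as deposited. Measured from each array's own median that order turned round, with 2.08 for treated HepG2 and 1.87 for HCT116 vehicle. HBEGF ranked 97 from the top in HCT116 and 221 in HepG2, and its response in HepG2 minus that in HCT116 was -0.23. The HepG2 vehicle signal was only 0.68 above its array's median. Adding 64 to every linear signal left 1.03 in HCT116 but took HepG2 under 2-fold, to 0.53.

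The other measured ligands were near or under the array medians. BTC read 4.60 on the treated and 4.69 on the vehicle array of HCT116, and 2.89 and 3.12 on those of HepG2, where both were dim. Its log2 differences were -0.09 in HCT116 and -0.23 in HepG2. EPGN was dim on all 4 arrays, at 3.15 treated and 2.83 vehicle in HCT116 and 2.37 and 2.29 in HepG2, so its log2 differences of 0.32 and 0.08 are between dim signals. EPGN, EREG, AREG and BTC follow each other among the protein-coding genes of chromosome 4. Of the 3 measured ones, EREG in HepG2 was the single case at least 2-fold from vehicle. The coding genes on either side, named after their values were seen, were within 2-fold: MTHFD2L at 0.27 in HCT116 and 0.05 in HepG2, and PARM1 at -0.15 and 0.29.

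EGFR, the receptor of all these ligands, was higher with MP-HX in both lines but under 2-fold. In HCT116 the treated array read 9.18 and the vehicle array 8.75, a log2 difference of 0.43, or 1.35-fold. In HepG2 they read 8.03 and 7.12, a log2 difference of 0.91, or 1.88-fold. Both HCT116 arrays lay above both HepG2 arrays, and the response in HepG2 minus that in HCT116 was 0.48. For scale, the robust standard deviation of the log2 differences of all genes, which mixes noise with response, was 0.37 in each line.

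ERBB3 was brighter in HepG2 than in HCT116, and its differences pointed opposite ways, both under 2-fold. In HCT116 the treated array read 6.96 and the vehicle array 6.53, a log2 difference of 0.43. In HepG2 they read 7.85 and 8.49, a log2 difference of -0.64, or 1.56-fold lower with MP-HX. HepG2 lay above HCT116 by 1.96 between the vehicle arrays and by 0.89 between the treated arrays. The response in HepG2 minus that in HCT116 was -1.07, with no replicate to check it.

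ERRFI1 was bright on every array and close to its vehicle level in both lines. The treated HCT116 array read 11.44 and its vehicle array 11.13, and those of HepG2 read 10.21 and 9.98. The log2 differences of 0.31 and 0.23 were smaller than the spread of 0.37 over all genes. In HepG2, where EREG was 11.6-fold higher, ERRFI1 was 1.17-fold higher. Any link between them was not tested, and receptor signalling was not measured.

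**Figure D2:**
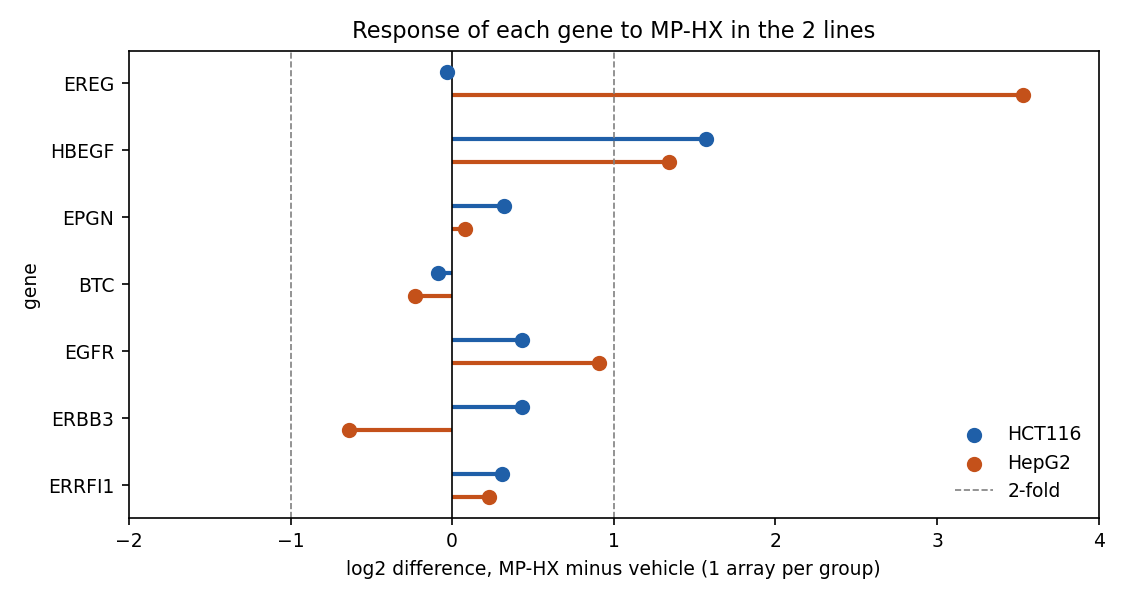
Log2 difference of MP-HX minus vehicle (x axis) for each gene (y axis) in HCT116 (blue) and HepG2 (orange), 1 array per group, with 2-fold marked by dashed lines. HBEGF passes 2-fold in both lines at 1.57 and 1.34, EREG in HepG2 alone at 3.53, and ERBB3 points opposite ways at 0.43 and -0.64.

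Counted together, 1 of the 7 genes was at least 2-fold higher with MP-HX in HCT116 (HBEGF) and 2 in HepG2 (EREG and HBEGF), and 0 were at least 2-fold lower in either line. Over all 14884 genes, 2.43% were at least 2-fold higher and 2.99% lower in HCT116, and 3.18% were higher and 2.26% lower in HepG2. The median log2 difference of the 7 genes was 0.32 in HCT116 and 0.23 in HepG2, against 0.00 over all genes in both lines. Because the genes were chosen with these values known, nothing is read from the counts.

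Between the vehicle arrays, 5 of the 7 genes were at least 2-fold lower in HepG2 than in HCT116 and 1, ERBB3, was at least 2-fold higher, where 19.3% of all genes were lower and 5.76% higher. The median of all genes was itself -0.42 in this comparison. Relative to that median, EREG stood at -5.99, EGFR at -1.21, BTC at -1.15, HBEGF at -1.05, ERRFI1 at -0.73, EPGN at -0.12 and ERBB3 at 2.38. BTC was dim in HepG2, and its HCT116 vehicle signal was 0.66 above the HepG2 array median. Of the genes at least 2-fold apart between the lines, 23.0% were higher and 77.0% lower in HepG2 as deposited, against 47.7% and 52.3% after quantile normalization and 40.8% and 59.2% with each array centred on its median. ERRFI1, at -0.87, was under 2-fold with either scaling, and EREG, HBEGF, BTC, EGFR and ERBB3 stayed at least 2-fold apart in the same direction. With 64 added to every linear signal, HBEGF at -0.60 and BTC at -0.31 were under 2-fold.

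**Figure D3:**
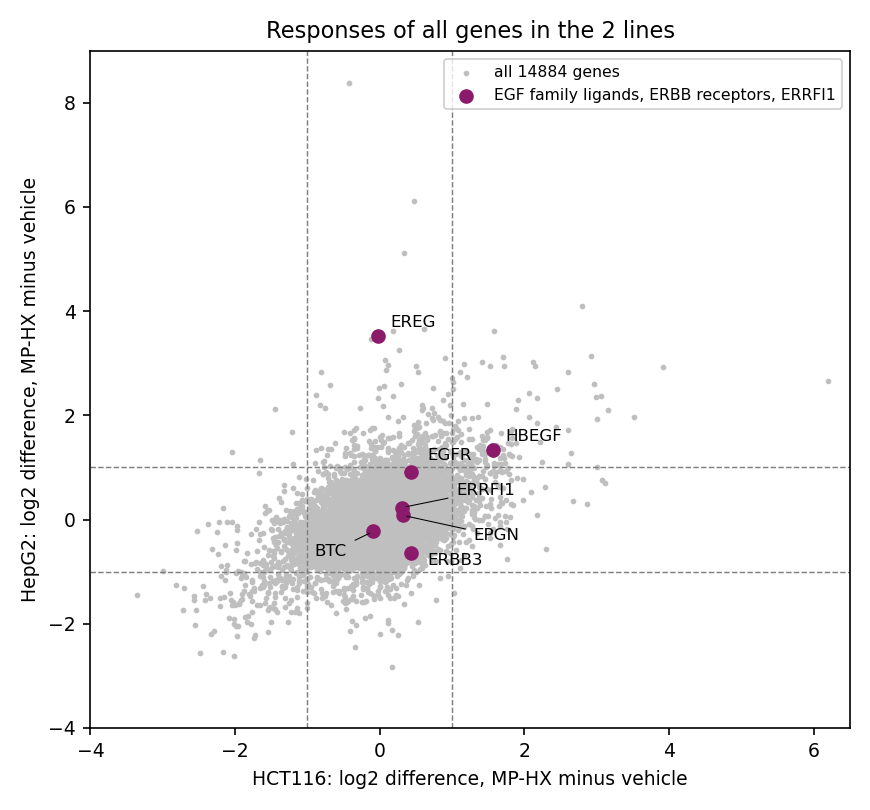
Log2 difference of MP-HX minus vehicle in HCT116 (x axis) and HepG2 (y axis) for all 14884 genes (grey) and the 7 genes described (purple, named), with 2-fold dashed. EREG stands at -0.03 and 3.53, HBEGF lies past 2-fold on both axes, and the others lie inside the 2-fold lines.

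The genes with the pattern most like that of EREG were sought by Euclidean distance over the 4 arrays, after each gene was centred on its own mean log2 signal. The nearest outside the family were KRTAP2-3 at a distance of 1.73, RBM23 at 1.74 and NTSR1 at 1.78. Like EREG they were brighter on both HCT116 arrays than on both HepG2 arrays, which largely follows from how they were chosen. Their log2 differences in HepG2 were 1.11, 1.12 and 1.18, against 3.53 for EREG, and in HCT116 they were -0.35, 0.25 and 0.69. In HepG2 the vehicle signal of KRTAP2-3 was dim, at 2.88, and its treated signal, at 3.99, was close to the array median of 3.97, while the vehicle signal of RBM23, at 4.05, was close to the array median of 4.03. KRTAP2-3 belongs to a family of closely similar keratin-associated genes, so its signal may include that of its copies.

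The genes that release the ligands and pass on their signal are given as lists, and the background shares above apply to each count. The lists were chosen with earlier results of these data known, so nothing is read from their counts or medians. Of 6 measured sheddases and their iRhom partners, 1 was at least 2-fold higher in each line and 0 lower, with a median log2 difference of 0.12 in HCT116 and 0.44 in HepG2. ADAM17, the protease that cleaves EREG and HBEGF from the membrane, read 10.29 treated and 8.77 vehicle in HCT116, a log2 difference of 1.52, and 8.90 and 8.01 in HepG2, a log2 difference of 0.89. RHBDF2, which carries ADAM17 towards the cell surface, read 8.41 and 7.80 in HCT116, a log2 difference of 0.61, and 8.44 and 6.86 in HepG2, a log2 difference of 1.58. The related RHBDF1 was at 0.33 and 0.88.

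Of EGF, the neuregulins and the receptor gene ERBB4, 0 of 6 were at least 2-fold apart in either line, with medians of -0.14 and -0.05. NRG4 was at -0.86 in HCT116, where its treated signal was dim at 3.55 and its vehicle signal 0.08 above the median of that array, and at 0.06 in HepG2 between dim signals. NRG3 was at -0.27 in HCT116, where its treated signal was dim at 4.05 and its vehicle signal stood at -0.01 from the median of that treated array. In HepG2 it was at 0.67, between dim signals of 3.90 and 3.23. NRG2 was at 0.06 and -0.54, and a second NRG2 cluster at 0.40 and 0.21.

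Of 8 measured adaptor and docking genes at the receptor, out of 11 listed, 1 was at least 2-fold higher in each line and 0 lower, with medians of 0.42 and 0.43. SOS2, which loads RAS with GTP, was at 1.67 in HCT116 and 0.44 in HepG2. The docking protein gene GAB2 was at 0.26 in HCT116 between dim signals, and at 1.90 in HepG2, where it read 6.22 treated and 4.32 vehicle. Adding 64 to every linear signal took GAB2 in HepG2 to 0.72. The adaptor gene GRB7 was at 0.86 and 0.23.

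In the cascade from RAS to ERK, 0 of 6 genes reached 2-fold in HCT116 and 1 of 6 in HepG2, where it was higher, with medians of 0.12 and 0.28. The kinase gene ARAF was at 0.14 and 1.04, of which the HepG2 value was 0.97 after quantile normalization and 0.81 with 64 added. MAP2K1, the gene of the kinase MEK1, was at 0.09 and 0.79, and HRAS at -0.65 and 0.22. Of 11 listed genes of the PI3K and AKT branch 3 are measured, and 0 were at least 2-fold apart. AKT1 was at -0.37 and -0.13, AKT2 at -0.40 and -0.12 and PDPK1, the gene of a kinase that activates AKT, at 0.01 and -0.27. A second, dimmer cluster was at -0.17 and 0.11 for AKT1 and at 0.33 and 0.14 for PDPK1.

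Of 11 measured genes known to be induced by ERK, 0 were at least 2-fold apart in HCT116, with a median of 0.13, and 5 were at least 2-fold higher in HepG2 and 0 lower, with a median of 0.81. LIF, a cytokine, read 8.56 treated and 8.29 vehicle in HCT116 and 8.42 and 5.16 in HepG2, so its log2 differences were 0.27 and 3.26. EGR1, an immediate early transcription factor, was at -0.81 and 2.84, and a second, dimmer cluster was at -0.79 and 0.55. FOSL1, a subunit of AP-1, was at 0.60 and 2.15. IER3 at 1.04 and MYC at 1.00 in HepG2 complete the 5. Both were named after their values were seen, and LIF, EGR1 and FOSL1 as the list's largest differences. IER3 has 11 clusters, and only the brightest is given. With 64 added to every linear signal, LIF in HepG2 was at 2.03, EGR1 at 2.17, FOSL1 at 1.80, IER3 at 0.97 and MYC at 0.91, and the list's median at 0.48. MYC was at 0.96 after quantile normalization.

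The list of feedback inhibitors of the receptor and of ERK also takes in other genes, among them NF1 and LRIG3. Of its 10 measured genes, 1 was at least 2-fold higher and 1, LRIG3, lower in HCT116. In HepG2, 1 was higher and 0 lower. The medians were -0.08 in HCT116 and 0.02 in HepG2. DUSP5, a phosphatase that switches off ERK, read 10.53 treated and 8.82 vehicle in HCT116, a log2 difference of 1.71, and 8.38 and 5.26 in HepG2, a log2 difference of 3.12. With 64 added to every linear signal, DUSP5 was at 1.58 and 1.96. A second, dimmer DUSP5 cluster was at 0.61 and 0.08. LRIG3, of a family of membrane proteins that includes inhibitors of ERBB receptors, was at -1.17 and -0.56, or at -0.58 in HCT116 with 64 added. NF1, which turns off RAS, was at 0.58 and -0.24.

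**Figure D4:**
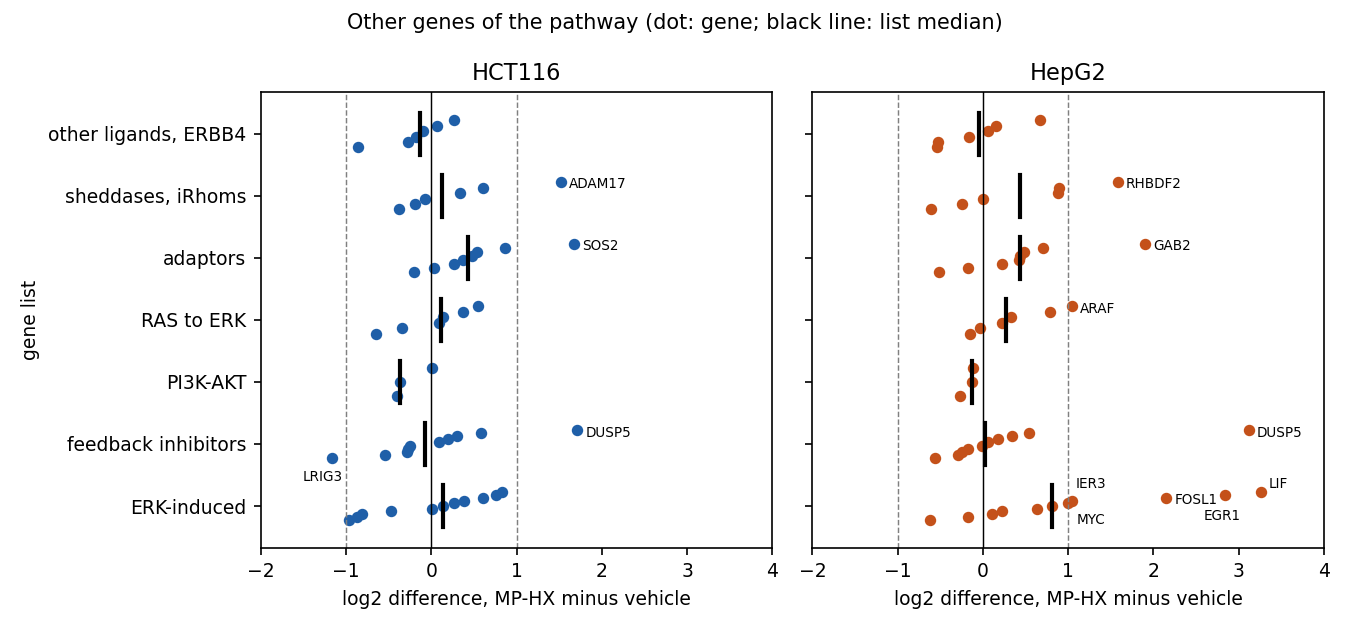
Log2 difference of MP-HX minus vehicle (x axis) for the measured genes of 7 lists around the receptors (y axis), HCT116 left and HepG2 right, 1 array per group. Each dot is a gene, set higher within its list the larger its difference, the black line is the list's median and dashed lines are 2-fold. The ERK-induced genes have a median of 0.81 in HepG2 and 0.13 in HCT116, and DUSP5 lies past 2-fold in both.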

How the data were processed

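The deposited table holds log2 signal per transcript cluster, with 2 decimals, made by the authors from scans of Human Gene 2.0 ST arrays, each hybridised with RNA pooled from 3 cultures. The submitters' notes name GCOS, Affymetrix Expression Console and Transcriptome Analysis Console, with the normalization not given in the sources used here. All 4 value columns were used as deposited. A probe table from GEO's platform annotation named 16098 of the 48226 clusters with 1 symbol each. The other 32128 were left unnamed here, and any cluster given several symbols is among them. Where several clusters share a symbol the brightest stood for the gene, and each of the 7 members has 1.

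The difference is MP-HX minus vehicle within a line, called at 2-fold, the threshold of the study's methods (Python 3.11.15, pandas 2.3.3). No test was applied: each group has 1 array, and the members and gene lists were chosen with earlier results of these data known. Up to 3 genes per list were named, those with the largest difference among genes above the array median on an array compared, beside genes said to be chosen after their values were seen. The alternatives were quantile normalization, centring on array medians, 64 added to the linear signal, the mean of a gene's clusters and thresholds of 1.5-fold and 3-fold. Counting was run on simulated data with little noise, whose added differences lay far past the threshold. That checks the code and not the calls made here.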

Additional observations from a re-analysis of the deposited data

Results flagged for a closer look

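In 12 of the genes given above, of which 2 are EREG and ERBB3, the differences from vehicle had opposite signs in the lines. There was 1 array per group, and the difference between the lines was not tested. The share of all genes with opposite signs was not counted, so nothing is read from the number of such genes. The response of HepG2 minus that of HCT116, in log2 units, was 3.56 for EREG, whose HCT116 value was -0.03, and -1.07 for ERBB3. Among the pathway genes it was 3.65 for EGR1, 1.48 for MYC, 0.94 for NRG3, 0.92 for NRG4, 0.87 for HRAS, -0.60 for NRG2, -0.82 for NF1 and -0.28 for PDPK1. In HepG2 both signals of NRG3 and both of NRG4 were dim, and the NRG4 difference there was only 0.06. The treated HCT116 signals of NRG3 and NRG4 were dim too. The HCT116 value was only 0.01 for PDPK1, and was -0.01, of the same sign as in HepG2, with each array centred on its median. A second cluster had the same sign in both lines for PDPK1 (0.33 and 0.14) and for NRG2 (0.40 and 0.21). The response of HepG2 minus that of HCT116 was 1.46 for KRTAP2-3 and 0.44 for PARM1.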

How the results depend on the processing

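Of 112 member values recomputed under quantile normalization, median centring, 64 added to the linear signal or the mean of clusters, 105 moved by less than the robust standard deviation of all genes in that comparison, 7 moved by more, all with 64 added, and 0 of those at least 2-fold apart reversed. The 7 were EREG in HepG2 (1.91), between vehicle arrays (-4.52) and between responses (1.94), HBEGF in HCT116 (1.03), in HepG2 (0.53) and between vehicle arrays (-0.60), and BTC between vehicle arrays (-0.31). Each member has 1 cluster, so the mean of clusters changed none.

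The number of members at least 2-fold apart in HepG2 was 2, and it was 1 with 64 added, 4 at a threshold of 1.5-fold and 1 at 3-fold. In HCT116 it was 1, and 0 at 3-fold, which HBEGF missed narrowly at 2.97-fold. Between the vehicle arrays it was 6, 4 with 64 added and 3 at 3-fold. The share of all genes past 1.5-fold or 3-fold was not counted, so nothing is read from the counts at those thresholds. Over all genes at 2-fold, 361 were higher and 445 lower in HCT116, 473 and 336 in HepG2, and 857 and 2867 between vehicle arrays. With 64 added these were 146 and 193, 164 and 104, and 393 and 969. Quantile normalization gave 1326 and 1454 between vehicle arrays, and median centring 1200 and 1739. A vehicle signal near the array median limits the fold of EREG and HBEGF in HepG2, and 1 array per group limits every value.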
